A study of Mus with 7 samples.

Results

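The genes of mitosis and chromosome segregation were described across 7 single-cell RNA libraries of fetal liver-derived macrophages (FLMs), a self-renewing macrophage culture grown from mouse fetal liver. The 50 members were taken by symbol, as genes that act in mitosis, with no measured value in the rule. They were, however, chosen with earlier results of these data known, so they are not a blind choice. All 50 were found among the 31053 genes of the count files. FLMs were wild type and came, per the study's methods, from C57BL/6J fetuses and were used after repeated passage, when they divide rapidly. All 7 cultures received 30 ng/mL GM-CSF, the growth factor that keeps them proliferating. Con cells were collected from medium with 10% fetal bovine serum (FBS) before any treatment. The other 6 cultures spent 24 h in 0.25% FBS with 8.3 µM bovine serum albumin (BSA), either alone (Veh) or carrying 25 µM docosahexaenoic acid (DHA), an omega-3 fatty acid. They were collected at that point (Veh.LPS.0 and DHA.LPS.0) or after treatment with 20 ng/mL lipopolysaccharide (LPS), the bacterial product sensed by TLR4. Treatment lasted 1 h (Veh.LPS.1 and DHA.LPS.1) or 4 h (Veh.LPS.4 and DHA.LPS.4). Con therefore differed from Veh.LPS.0 in serum, albumin and a day in culture. The LPS libraries also differed from the 0 h libraries in the medium in which LPS was given and in 1 h or 4 h more in culture after serum reduction. No library without LPS was collected at those hours. These parts of each contrast cannot be told apart.

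Entry into mitosis is driven by the kinase CDK1 with the A- and B-type cyclins, whose transcripts build up through G2 under the transcription factors FOXM1 and MYBL2. The products of the other members then condense the chromosomes, build the spindle, hold each chromosome to it through the kinetochore, delay separation until all are attached, destroy securin and the cyclins, and divide the cell. Because these transcripts are made late in the cycle and cleared at its end, macrophages that have left the cycle hold little of them.

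With 1 library per condition there were no replicates and no test of any difference, and the 95% intervals cover counting error only. Intervals on ratios take each counted molecule as an independent draw and leave out the spread between cells. Because RNA of the members was unevenly spread over cells, these intervals are too narrow. Cells were kept with the study's limits of more than 20000 unique molecular identifiers (UMIs, each a captured RNA molecule), at least 2000 genes and under 20% mitochondrial UMIs. That left 692 to 3073 cells and 22045775 to 125716982 UMIs per library, and 11640 cells of 31151 barcodes in all. Between 29.0% and 54.7% of the barcodes of Con and Veh were at or above the mitochondrial limit, and 74.4% to 80.04% of those of DHA, so mitochondrial share moved with treatment. Kept barcodes were shared by 11 of the 21 pairs of libraries, at most 4 per pair. All 9 macrophage markers were present, with summed levels of 5817 to 7089 CPM, the UMIs of a gene scaled to a library total of 1000000. Markers of other cells were near 0: the erythroid sum reached 0.571 CPM with Hbb-bs and Hbb-bt at 0, and the stem, stromal, mast and lymphoid sums at most 0.370 CPM. The hepatocyte sum was 5.48 to 7.66 CPM, carried by Afp with Alb and Ttr at 0, and the neutrophil sum 0.0571 to 6.99 CPM, carried by S100a8 with S100a9 and Ly6g at 0. With no other cell type in the cultures, free RNA could not be measured in cells that should lack these genes.

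The 50 members summed to 7393 CPM in Con. Without LPS the sum was 5914 CPM for Veh and 4378 CPM for DHA, and at 1 h it was 5599 and 3907 CPM. After 4 h of LPS it was 1539 CPM for Veh and 2255 CPM for DHA. Mitotic transcripts were thus most abundant in full serum and scarcest after 4 h of LPS without DHA. The highest library was Con for 46 members, Veh.LPS.0 for 3 and Veh.LPS.1 for 1, and the lowest library was Veh.LPS.4 for all 50. The median member fell from 112 CPM (Con) to 90.4 CPM (Veh.LPS.0) and 17.8 CPM (Veh.LPS.4), and stood at 29.5 CPM with DHA at 4 h. No member was at 0 anywhere, and every member reached a mean of at least 5 CPM over the 7 libraries, as did 8628 of all genes. These 8628 genes are the ones tested, that is, measured well enough to be compared by size.

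**Figure D1:**
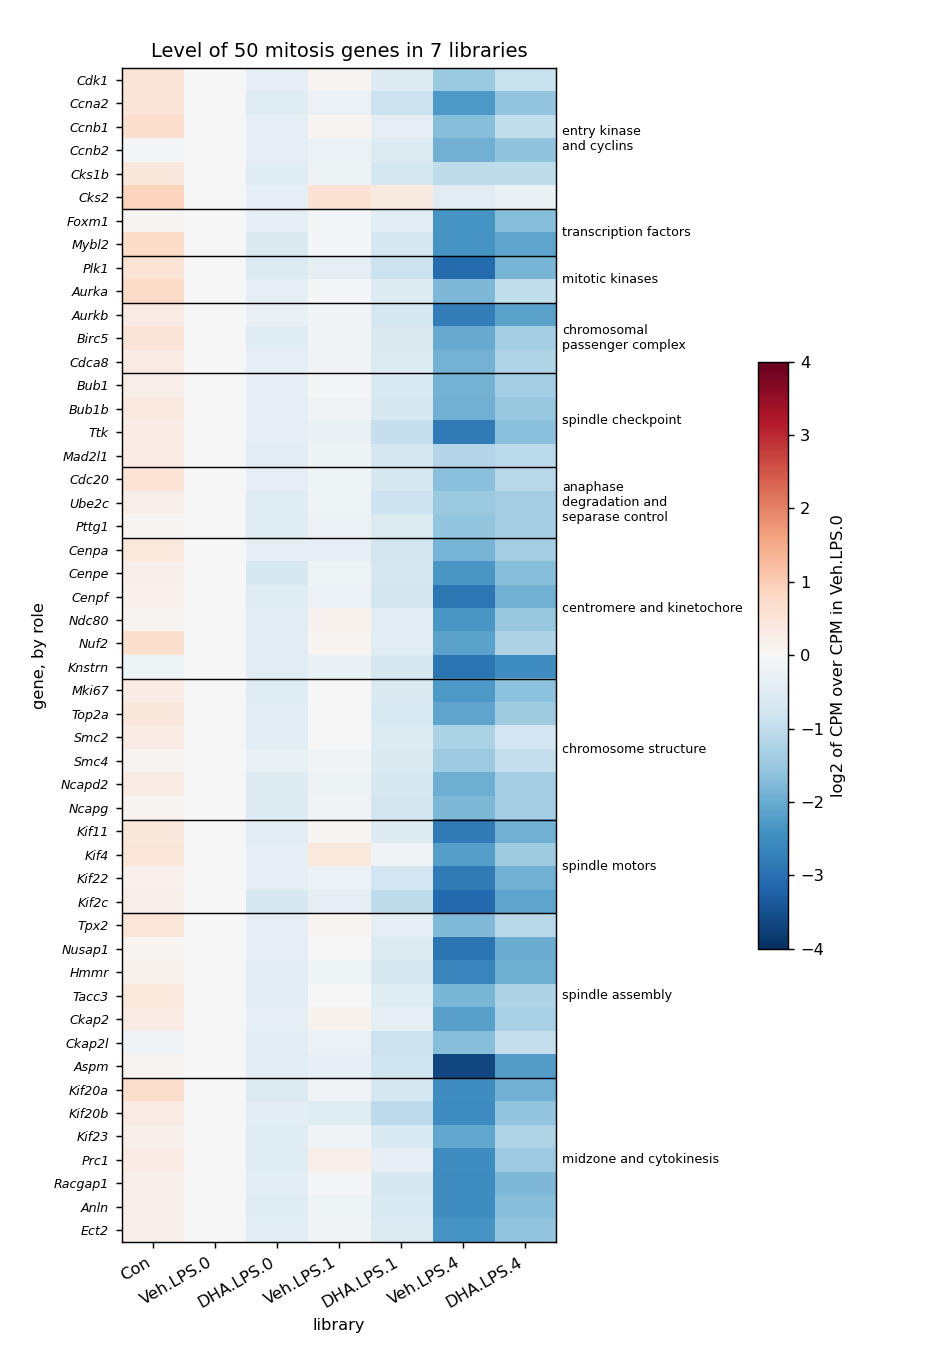
Heat map of the log2 ratio of CPM to Veh.LPS.0 for the 50 mitosis genes (rows, grouped by role) in the 7 libraries (columns), 1 library per condition. Blue is lower and red higher than Veh.LPS.0: the Veh.LPS.4 column is the darkest blue in every row, and Cks2 is the palest gene in it.

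The genes lie on 17 mouse chromosomes, with at most 9 on 1 chromosome, chromosome 2 (RefSeq, GRCm38.p6). Positions of those that lead the results are as follows, in that assembly. The mitotic kinase Cdk1 is ENSMUSG00000019942, chr10:69335146-69352912, the proliferation marker Mki67 is ENSMUSG00000031004, chr7:135689784-135716450, and the kinase Plk1 is ENSMUSG00000030867, chr7:122159435-122169884. The spindle pole gene Aspm is ENSMUSG00000033952, chr1:139454188-139494088 and the microtubule depolymerase Kif2c is ENSMUSG00000028678, chr4:117159633-117182624. The kinetochore motor Cenpe is ENSMUSG00000045328, chr3:135212563-135273540, and the small CDK-binding protein genes are Cks1b (ENSMUSG00000028044, chr3:89415472-89418291) and Cks2 (ENSMUSG00000062248, chr13:51645232-51650662). Cks1b has a close copy, Cks1brt, in the same gene table, and how reads were divided between them is not known, so its values are uncertain.

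After 4 h of LPS nearly the whole set was lower. In the contrast of Veh.LPS.4 with Veh.LPS.0, 49 of the 50 members were lower by more than 1.5-fold, the size limit used throughout, and the same 49 were lower by more than 2-fold. Of all tested genes, 39.2% were lower by more than 1.5-fold, so a fall was common in this contrast. The median log2 ratio of the members was -2.16, against -0.38 for all tested genes, and their summed level was 3.84-fold lower (95% interval 3.82 to 3.87). TMM scaling, which centres the bulk of genes, moved the median of all genes to 0.02 and that of the members to -1.75, with the count of 49 unchanged. The lowest ratios were those of Aspm at -3.65, Kif2c at -3.11 and Plk1 at -3.09 on the log2 scale. The highest were Cks2 at -0.45, the 1 member inside the limit, Cks1b at -1.01 and Mad2l1 at -1.18. With DHA present, DHA.LPS.4 against DHA.LPS.0, 45 members were lower by more than 1.5-fold, against 32.5% of tested genes. By more than 2-fold, 26 members were lower. The share of all tested genes past 2-fold, or past 1.5-fold under TMM scaling, was not counted in any contrast. The members had a median of -1.01, and their summed level was 1.94-fold lower (1.92 to 1.96). All tested genes had a median of -0.27 in this contrast, and TMM scaling gave a median of -0.75 and a count of 35 for the members. The lowest ratios there were Knstrn at -2.06, Aurkb at -1.82 and Aspm at -1.78, and the highest were Cks2 at 0.08, Smc2 at -0.33 and Ckap2l at -0.47.

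DHA came with lower mitotic transcripts before LPS and after 1 h, and with higher ones after 4 h. Every member was lower in DHA than in Veh at 0 h and at 1 h, and every member was higher at 4 h, Cks1b there by a margin within its counting interval that turned under TMM scaling. The shifts before LPS were small and even, with log2 ratios from -0.65 to -0.28 and a median of -0.44. All 50 intervals lay below a ratio of 1, but the share of all tested genes with such an interval was not counted. By more than 1.5-fold, 2 members were lower, against 1.1% of tested genes. The summed level was 1.35-fold lower (1.34 to 1.36). Of all tested genes, 61.4% were lower in this contrast, with a median of -0.05. At 1 h the log2 ratios ran from -0.67 to -0.20 with a median of -0.51, 12 members passed 1.5-fold against 1.99% of tested genes, and the summed level was 1.43-fold lower (1.42 to 1.44). These counts moved with the settings, to 1 and 4 under TMM scaling and to 28 and 40 when all deposited barcodes were used, where 5.93% and 10.6% of tested genes were lower by as much. With mitochondrial genes also left out of the totals of all barcodes, they were 6 and 20, against 1.21% and 2.79%. All 50 members stayed lower with DHA at both hours under these 3 settings.

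At 4 h of LPS the log2 ratios of DHA to Veh ran from close to 0 to 1.41, with a median of 0.66 against 0.09 for all tested genes. Of all tested genes, 66.4% were higher in this contrast. By more than 1.5-fold, 32 members were higher, against 3.98% of tested genes, and 5 were higher by more than 2-fold. The interval lay above a ratio of 1 for 47 members, and the 3 others were Cks1b, Mad2l1 and Mybl2. How many of all tested genes had such an interval was not counted. The summed level was 1.47-fold higher (1.45 to 1.48). TMM scaling gave a median of 0.57 and 24 members past the limit, and placed Cks1b slightly below a ratio of 1. The share of tested genes past the limit under TMM scaling was not counted. With all deposited barcodes in place of the kept cells, 43 members were higher and 10 passed the limit, against 3.31% of tested genes, and the 7 that turned were Ccnb2, Cks1b, Cks2, Mad2l1, Mybl2, Pttg1 and Ube2c. With mitochondrial genes also left out of the totals, 45 were higher and 21 passed, against 6.85%. The log2 ratio of DHA to Veh in the summed level was 0.99 higher at 4 h than at 0 h (0.968 to 1.003). The interval of this change lay above 0 for each of the 50 members. At 1 h the same change was -0.09 (-0.097 to -0.073), with 22 members' intervals below 0 and 3 above. These intervals leave out the spread between cells. The change was not computed for all tested genes, so these counts have no share over all genes beside them. Veh.LPS.4 enters both the LPS comparison at 4 h and the DHA comparison at 4 h, so a low value there lowers the former ratio and raises the latter.

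**Figure D2:**
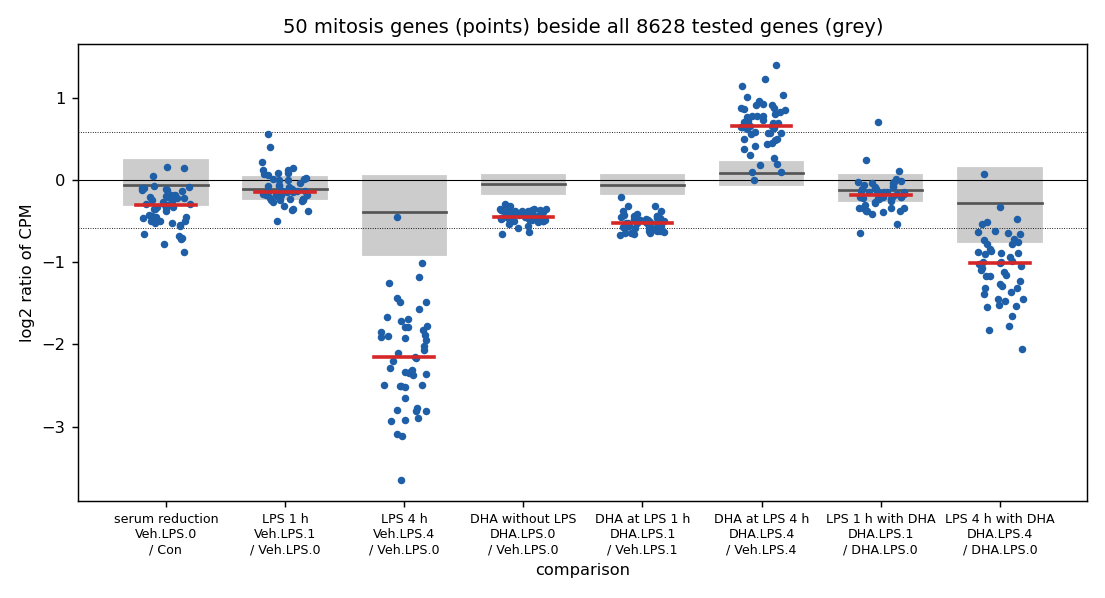
Log2 ratio of CPM of each of the 50 mitosis genes (blue points) in 8 comparisons of 2 libraries, with their median (red line), beside the median (dark grey line) and the interquartile range (grey box) of the 8628 tested genes. Dotted lines mark 1.5-fold. The points lie below 0 for DHA without LPS and at 1 h, at or above 0 for DHA at 4 h, and lowest for LPS at 4 h.

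From full to reduced serum the members were lower by less. In Veh.LPS.0 against Con, 47 members were lower and 3 higher, with a median log2 ratio of -0.30. Of all tested genes, 55.2% were lower, with a median of -0.05. By more than 1.5-fold, 6 members were lower, against 7.31% of tested genes. The summed level was 1.25-fold lower (1.246 to 1.254). The lowest ratios were Cks2 at -0.88, Aurka at -0.77 and Mybl2 at -0.72, followed by Kif20a, Ccnb1 and Nuf2 past the limit. Slightly higher in reduced serum were Knstrn at 0.17, Ckap2l at 0.15 and Ccnb2 at 0.06, each with an interval above 0.

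At 1 h of LPS the members were close to their level before it. From Veh.LPS.0 to Veh.LPS.1, no member was lower by more than 1.5-fold, against 4.28% of tested genes, the median log2 ratio was -0.14 against -0.102 for all tested genes, and the summed level was 1.06-fold lower (1.05 to 1.06). The lowest were Kif20b at -0.496, Plk1 at -0.37 and Kif2c at -0.36, and the highest were Cks2 at 0.57, Kif4 at 0.41 and Prc1 at 0.22. Directions of single genes in this contrast depend on the scaling: 15 members were above a ratio of 1 by CPM and 20 under TMM. In DHA.LPS.1 against DHA.LPS.0 the median was -0.18, against -0.11 for all tested genes. In it 1 member, Kif20b at -0.64, was lower by more than 1.5-fold, against 4.57% of tested genes. Under TMM scaling Kif20b was at -0.526, inside the limit. Cks2 was the 1 member higher by more than 1.5-fold in this contrast, at 0.72, as were 444 of the 8628 tested genes. It was followed by Kif4 at 0.25 and Prc1 at 0.11, with Ttk at -0.54 and Ckap2l at -0.41 next to Kif20b at the low end.

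In the values that follow, a level in CPM is given for Con and then for Veh and DHA, in that order, at each hour. The kits read RNA at its 3′ end, so these levels are per captured molecule and are not divided by gene length.

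Among the kinase and cyclins of mitotic entry, Cdk1, the kinase that starts mitosis, stood at 189 CPM in Con, 131 and 100.2 CPM without LPS, 140.1 and 91.1 CPM after 1 h and 46.9 and 70.5 CPM after 4 h. Ccna2, the cyclin of S phase and early mitosis, stood at 125 CPM in Con, 88.2 and 62.6 CPM without LPS, 75.5 and 48.3 CPM after 1 h and 17.8 and 29.8 CPM after 4 h. Both were lower with DHA up to 1 h and higher with it at 4 h, when Cdk1 had a DHA ratio of 1.503 (1.41 to 1.5996) and Ccna2 one of 1.67 (1.51 to 1.85).

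Ccnb1, the main B-type cyclin, was at 155 CPM in Con, 97.4 and 75.9 CPM without LPS, 103 and 73.9 CPM after 1 h and 29.7 and 48.9 CPM after 4 h. Its relative Ccnb2 was at 164 CPM in Con, 170.5 and 134 CPM without LPS, 145 and 117 CPM after 1 h and 44.97 and 55.8 CPM after 4 h, and so was about level between Con and Veh.LPS.0. The DHA ratio of Ccnb2 at 4 h, 1.24 (1.16 to 1.33), was below that of Ccnb1, 1.65 (1.53 to 1.78). These intervals did not overlap, but they cover counting error only, so the difference between the genes was not tested.

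The 2 small subunits that bind CDK1 had the smallest falls of any member at 4 h of LPS, and the counts of Cks1b carry the doubt named above. Cks1b was at 332 CPM in Con, 243 and 174 CPM without LPS, 213 and 149 CPM after 1 h and 121 and 121 CPM after 4 h, and so was alike in both 4 h libraries, with a ratio of 1.001 (0.957 to 1.05). Cks2 was at 138 CPM in Con, 75.2 and 59.1 CPM without LPS, 112 and 97.2 CPM after 1 h and 55.1 and 62.7 CPM after 4 h. It had the lowest serum ratio and the highest ratio at 1 h of LPS of any member, and these 2 ratios share the Veh.LPS.0 library. Cks2 was also the highest member in DHA.LPS.1 against DHA.LPS.0, which does not use that library. Its DHA.LPS.4 level was slightly above its DHA.LPS.0 level, with a ratio of 1.06 whose interval included 1 (0.990 to 1.136). For the other 49 members both 4 h libraries were below both 0 h libraries. Median log2 ratios of the 6 genes of this role were -1.599 for 4 h of LPS and 0.45 for DHA at 4 h.

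The transcription factors were alike at 4 h of LPS. Foxm1, which activates G2 and mitosis genes, was at 28.1 CPM in Con, 25.8 and 19.9 CPM without LPS, 25.2 and 18.7 CPM after 1 h and 5.09 and 7.98 CPM after 4 h. Mybl2, which binds the same promoters earlier with the MuvB complex, was at 45.1 CPM in Con, 27.4 and 18.4 CPM without LPS, 26.03 and 16.8 CPM after 1 h and 5.31 and 6.396 CPM after 4 h. Their log2 ratios for 4 h of LPS were -2.34 and -2.37. With DHA at 4 h Foxm1 had a ratio of 1.57 (1.295 to 1.898) and Mybl2 one of 1.21 (0.981 to 1.48), an interval that includes 1, and the intervals of the pair overlapped.

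Of the mitotic kinases, Plk1, which drives spindle assembly and mitotic exit, fell most and differed most with DHA at 4 h. It stood at 79.2 CPM in Con, 54.2 and 37.5 CPM without LPS, 41.98 and 29.8 CPM after 1 h and 6.38 and 15.1 CPM after 4 h. Aurka, the kinase of the spindle poles, stood at 84.3 CPM in Con, 49.4 and 38.6 CPM without LPS, 46.9 and 34.5 CPM after 1 h and 14.3 and 24.7 CPM after 4 h. The log2 ratio at 4 h of LPS was -3.09 for Plk1 and -1.79 for Aurka, and the DHA ratios at 4 h were 2.36 (2.03 to 2.74) and 1.73 (1.55 to 1.93). Both contrasts share the Veh.LPS.4 library.

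The chromosomal passenger complex corrects faulty attachments and directs cytokinesis. Its kinase Aurkb was at 86.4 CPM in Con, 68.97 and 55.7 CPM without LPS, 63.8 and 42.7 CPM after 1 h and 10.1 and 15.8 CPM after 4 h. Its subunit Birc5, or survivin, was at 249.8 CPM in Con, 174 and 123 CPM without LPS, 162 and 117 CPM after 1 h and 42.95 and 66.9 CPM after 4 h. Aurkb fell further at 4 h of LPS (log2 -2.77) than Birc5 (-2.01) and the third member, Cdca8 (-1.898), while their DHA ratios at 4 h were close, at log2 0.65, 0.64 and 0.71.

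The spindle checkpoint holds back anaphase until every kinetochore is attached. Bub1, a kinase of that checkpoint, was at 114 CPM in Con, 94.96 and 72.8 CPM without LPS, 90.3 and 62.1 CPM after 1 h and 25.8 and 36.7 CPM after 4 h. Mad2l1, its inhibitor of the anaphase-promoting complex, was at 47.8 CPM in Con, 39.1 and 28.4 CPM without LPS, 33.9 and 24.7 CPM after 1 h and 17.2 and 18.5 CPM after 4 h, and kept more of its level at 4 h of LPS than any member but Cks2 and Cks1b. The other kinase of the checkpoint, Ttk, sat at the other end, with log2 ratios of -2.81 for 4 h of LPS and 1.15 for DHA at 4 h, while Bub1b had -1.91 and 0.39. Ttk was 1 of the 2 members under 5 CPM in Veh.LPS.4, at 3.69 CPM from 216 UMIs, the other being Kif2c at 3.79 CPM.

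Genes of anaphase and of the destruction of cyclins had the smallest fall as a role, with a median log2 ratio of -1.57 at 4 h of LPS. Cdc20, which activates the anaphase-promoting complex, was at 102 CPM in Con, 69.9 and 53.8 CPM without LPS, 61.7 and 44.8 CPM after 1 h and 22.03 and 32.7 CPM after 4 h. Ube2c, the ubiquitin-conjugating enzyme of that complex, was at 363 CPM in Con, 306 and 218 CPM without LPS, 270.4 and 173 CPM after 1 h and 109 and 118 CPM after 4 h. Pttg1, or securin, the inhibitor of separase, was at 116 CPM in Con, 110.0 and 78.9 CPM without LPS, 93.2 and 75.4 CPM after 1 h and 36.998 and 42.4 CPM after 4 h. None of the 3 passed 1.5-fold with DHA at 4 h, against 3.98% of tested genes higher past it. Their ratios there were 1.48 (1.35 to 1.63), 1.08 (1.03 to 1.13) and 1.15 (1.06 to 1.24).

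At the centromere and kinetochore, Cenpa, the histone that marks the centromere, stood at 275 CPM in Con, 203 and 154 CPM without LPS, 159 and 123 CPM after 1 h and 56.6 and 77.3 CPM after 4 h. Cenpe, the motor that brings chromosomes to the spindle equator, stood at 203 CPM in Con, 177 and 114 CPM without LPS, 158 and 110.4 CPM after 1 h and 34.98 and 53.8 CPM after 4 h. Cenpf, a protein of the outer kinetochore, stood at 302 CPM in Con, 268 and 192 CPM without LPS, 228 and 161 CPM after 1 h and 35.8 and 70.2 CPM after 4 h. Cenpe was 1 of the 2 members past 1.5-fold with DHA before LPS, with a ratio of 0.648 (0.626 to 0.6702). Under TMM scaling it was at log2 -0.578, just inside the limit. Cenpf and Knstrn fell further at 4 h of LPS (log2 -2.902 and -2.93) than Cenpa (-1.85), and Ndc80 and Nuf2, which bind the microtubules, lay between (-2.34 and -2.15). Cenpf and Knstrn then differed in their DHA log2 ratios at 4 h, 0.97 and 0.45.

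The chromosome structure genes shape and untangle mitotic chromosomes. Mki67, a coat of mitotic chromosomes and the usual marker of dividing cells, was at 584 CPM in Con, 477 and 344 CPM without LPS, 486 and 316 CPM after 1 h and 97.3 and 153 CPM after 4 h. Top2a, the topoisomerase that untangles sister chromatids, was at 605 CPM in Con, 444 and 329 CPM without LPS, 450.4 and 293 CPM after 1 h and 103 and 164 CPM after 4 h. Smc2, the core of condensin, was at 287 CPM in Con, 232 and 171 CPM without LPS, 233 and 159.8 CPM after 1 h and 97.3 and 137 CPM after 4 h. Smc2 and its partner Smc4 kept more of their level at 4 h of LPS (log2 -1.25 and -1.44) than the condensin subunits Ncapd2 and Ncapg (-1.94 and -1.79). Smc4 also had the smallest DHA difference before LPS of any member, at log2 -0.28.

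The spindle motors fell most as a role, with a median log2 ratio of -2.804 at 4 h of LPS. All 4 were higher by more than 1.5-fold with DHA at that hour, against 3.98% of tested genes. Both contrasts share the Veh.LPS.4 library, where Kif2c had 222 UMIs and Kif22 316, and a low value there moves both. Kif11, the motor that pushes the spindle poles apart, was at 127 CPM in Con, 92.5 and 68.1 CPM without LPS, 98.3 and 64.2 CPM after 1 h and 13.3 and 24.5 CPM after 4 h. Kif2c, which removes wrongly attached microtubules, was at 38.6 CPM in Con, 32.8 and 20.8 CPM without LPS, 25.6 and 16.1 CPM after 1 h and 3.79 and 7.67 CPM after 4 h. Its DHA ratio was 0.635 (0.585 to 0.689) before LPS, the lowest of any member, and 2.02 (1.65 to 2.48) after 4 h. Kif4 and Kif22, which move chromosome arms, had DHA log2 ratios of 0.78 and 0.88 at 4 h.

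Of the spindle assembly factors, Tpx2, which activates Aurora A on microtubules, was at 197 CPM in Con, 139.5 and 108 CPM without LPS, 152 and 107 CPM after 1 h and 40.8 and 64.5 CPM after 4 h. Aspm, which organises the spindle poles, was at 76.5 CPM in Con, 71.1 and 51.6 CPM without LPS, 57.1 and 40.9 CPM after 1 h and 5.67 and 15.1 CPM after 4 h. Aspm thus had both the lowest ratio with 4 h of LPS, 0.0797 (0.0712 to 0.08899), and the highest with DHA at 4 h, 2.66 (2.28 to 3.104), and these 2 ratios share the Veh.LPS.4 library. The remaining genes of this role, Nusap1, Hmmr, Tacc3, Ckap2 and Ckap2l, ran from -2.93 to -1.69 on the log2 scale at 4 h of LPS and from 0.58 to 0.93 with DHA at 4 h.

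Midzone and cytokinesis genes, which act last, lay close together, from -2.51 to -2.07 on the log2 scale at 4 h of LPS over 7 genes. Kif20a, a motor of the midzone, was at 53.5 CPM in Con, 32.9 and 22.4 CPM without LPS, 29.8 and 20.1 CPM after 1 h and 5.87 and 8.75 CPM after 4 h. Kif23, a motor of the central spindle, was at 114 CPM in Con, 97.97 and 70.3 CPM without LPS, 89.3 and 63.7 CPM after 1 h and 23.4 and 42.5 CPM after 4 h. Both were lowest in Veh.LPS.4 and highest in Con. Prc1, which bundles midzone microtubules, was at 203 CPM in Con, 166 and 119.9 CPM without LPS, 194 and 129 CPM after 1 h and 29.5 and 60.7 CPM after 4 h. Anln, a scaffold of the contractile ring, was at 109.7 CPM in Con, 95.9 and 69.3 CPM without LPS, 85.8 and 62.99 CPM after 1 h and 16.8 and 29.6 CPM after 4 h. Of the 7, 6 were higher by more than 1.5-fold with DHA at 4 h, against 3.98% of tested genes. Prc1 was highest at 2.06 (1.91 to 2.21), and Kif20a was just inside the limit at 1.49 (1.24 to 1.78). Kif20b, Racgap1 and Ect2 had DHA log2 ratios of 0.92, 0.699 and 0.79 at that hour.

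**Figure D3:**
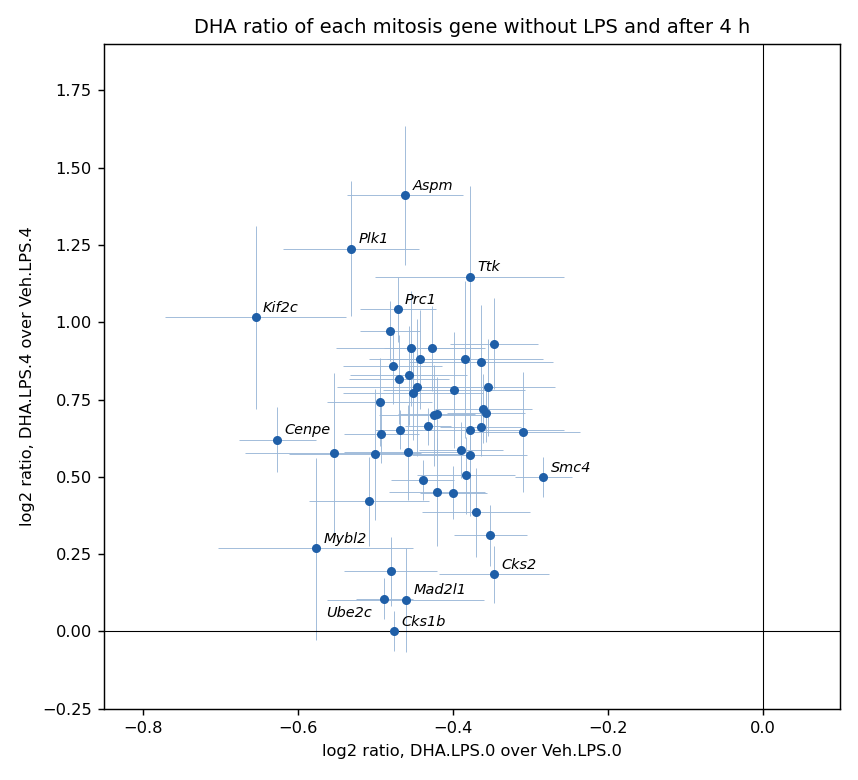
Log2 ratio of DHA to Veh for each of the 50 mitosis genes before LPS (x axis) and after 4 h of LPS (y axis), with 95% intervals from counting error. Every point lies left of 0 on the x axis and at or above 0 on the y axis, with Aspm highest and Cks1b at a ratio of 1.

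The change in the DHA ratio from 0 h to 4 h had a median of 1.12 on the log2 scale over the members. It was 1.87 (1.64 to 2.104) for Aspm and 1.77 (1.54 to 2.001) for Plk1, against 0.48 (0.402 to 0.55) for Cks1b. No library is shared between the DHA comparisons at 0, 1 and 4 h. The level of the set in DHA was 1.35-fold below Veh at 0 h and 1.47-fold above it at 4 h, while within each treatment the 4 h library was below the 0 h library.

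Single cells showed where in the population these differences lay. Every cell was thinned to 20000 UMIs, so that depth was equal, and its member UMIs were counted. The median cell held 125 in Con, 82 in Veh.LPS.0, 29 in DHA.LPS.0, 76 in Veh.LPS.1, 25 in DHA.LPS.1, 10 in Veh.LPS.4 and 11 in DHA.LPS.4. The 90th percentile was 267 in Con, 253 and 246 in Veh.LPS.0 and DHA.LPS.0, 239 and 206 at 1 h, and 82.8 and 130 at 4 h. The DHA to Veh ratio before LPS was thus 0.354 for the median cell and 0.974 at the 90th percentile, and at 4 h it was 1.10 and 1.57.

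Cells with more than 253 member UMIs, the 90th percentile of Veh.LPS.0, were 13.03% of Con (exact binomial 95% interval 11.8 to 14.3), 9.96% of Veh.LPS.0, a share set by the limit itself, and 9.03% of DHA.LPS.0 (7.01 to 11.4). They were 7.35% of Veh.LPS.1 (6.46 to 8.33) and 5.03% of DHA.LPS.1 (3.62 to 6.79), 1 of 993 cells of Veh.LPS.4, and 0 of 692 cells of DHA.LPS.4, which by the limit of 3 counts allows a share of up to 0.434% and by the exact binomial interval one of up to 0.532%. The intervals count cells of 1 library and do not cover the spread between cultures. This is a range of a score and not a cell type: 232 cells of Veh.LPS.0 and 40 of DHA.LPS.0 lay within 10% of the limit. With the median of Veh.LPS.0, 82 UMIs, as a limit added after the values were seen, the shares above it were 49.8% in Veh.LPS.0, again set by the limit, and 34.4% in DHA.LPS.0 (30.9 to 38.0). They were 48.7% and 33.2% at 1 h. At 4 h they were 10.1% in Veh (8.27 to 12.1) and 21.8% in DHA (18.8 to 25.1), so the order of the treatments was reversed.

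**Figure D4:**
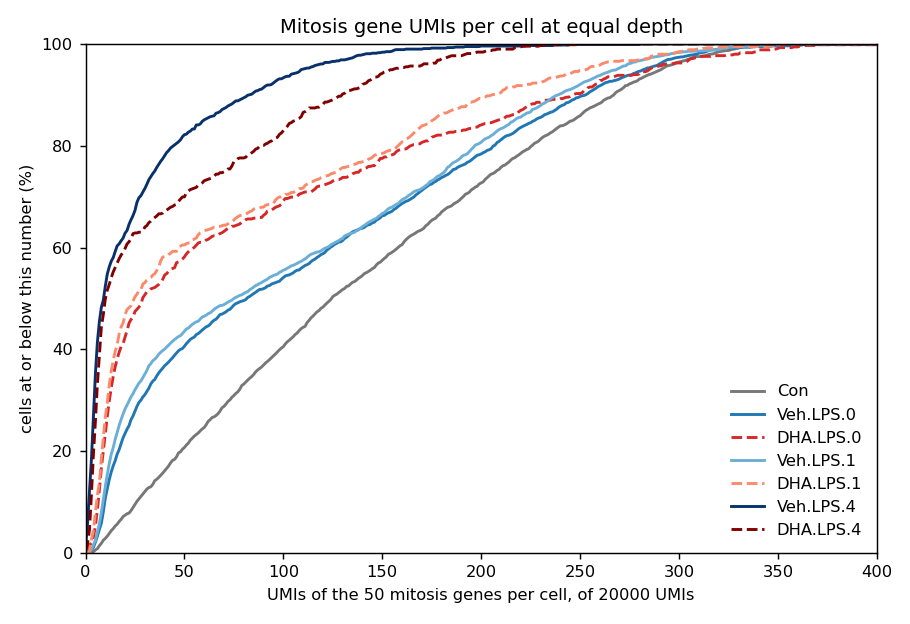
Cumulative share of cells (y axis, percent) by the number of UMIs of the 50 mitosis genes in a cell thinned to 20000 UMIs (x axis), 1 line per library, solid for Con and Veh and dashed for DHA. Before LPS and at 1 h the dashed lines lie above the Veh lines at low numbers and meet them near the top, and at 4 h the dashed line lies below the solid one.

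The 10% of cells with the most member UMIs held 21.5% of all member UMIs in Con, 26.3% in Veh.LPS.0 and 35.8% in DHA.LPS.0. They held 26.5% and 35.7% at 1 h, and 44.4% and 40.04% at 4 h. Mitotic transcripts were thus more concentrated in few cells in DHA than in Veh up to 1 h, and less so at 4 h. Gene by gene, cells were then ranked by the UMIs of the other members, and the top 10% were set apart. The ratio of DHA.LPS.0 to Veh.LPS.0 had a median of 1.04 over the members within that 10%, where 32 members were above 1. In the remaining cells the median was 0.655, and no member was above 1. At 1 h the medians were 0.979 and 0.609, and at 4 h they were 1.398 and 2.01. For 4 h of LPS without DHA they were 0.433 and 0.152. Because cells were ranked by the UMIs of other members of the same set, these ratios describe the shape of the distribution only.

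Depth before thinning was higher in the cells above 253 UMIs than in the others, with medians of 48045 and 35757 UMIs in Veh.LPS.0 and 58165 and 45558 in DHA.LPS.0, and cells with very high UMI numbers may include doublets. Leaving out the 5% of kept cells with the most UMIs in each library changed the DHA count past 1.5-fold at 0 h from 2 to 1, and the change in the DHA ratio from 0 to 4 h to 0.96. The mitochondrial share of the cells above 253 member UMIs was close to that of the others, with medians of 7.07% and 7.53% in Veh.LPS.0. Cells above 253 member UMIs held a median of 38 UMIs of 42 DNA replication genes in Veh.LPS.0 and the others 39, while in DHA.LPS.0 the medians were 39 and 24.

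The breadth of detection followed the levels. A UMI was found in at least 50% of kept cells for 50 members in Con, 46 in Veh.LPS.0, 33 in DHA.LPS.0, 39 in Veh.LPS.1, 25 in DHA.LPS.1, and 11 in each 4 h library, where median depth was 56239 UMIs in Veh and 29631 in DHA. After thinning to equal depth, the median member had a UMI in 56.6% of cells of Veh.LPS.0, 43.6% of DHA.LPS.0, 19.8% of Veh.LPS.4 and 27.7% of DHA.LPS.4.

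Lists of related genes were set beside the members and beside all tested genes, of which 39.2% were lower at 4 h of LPS and 3.98% higher with DHA at 4 h by more than 1.5-fold. Of 51 tested genes of other periodic mitosis factors, among them further kinetochore, cohesion and midzone proteins, 48 were lower by more than 1.5-fold at 4 h of LPS, with a median log2 ratio of -2.09, and 26 were higher by as much with DHA at 4 h, with a median of 0.59. The lowest at 4 h of LPS were Depdc1b (-4.51), the kinesin Kif14 (-3.18) and the condensin subunit Ncaph (-2.79). The lowest with DHA before LPS were Depdc1a (-0.74), Iqgap3 (-0.69) and the phosphatase Cdc25c (-0.68), where the list's median was -0.42. The kinetochore gene Zwint of this list went the other way at 4 h of LPS, at log2 0.59. It was singled out after its values were seen.

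Mitotic machinery whose transcripts are less tied to the cycle, such as subunits of the anaphase-promoting complex and cohesin, moved less. Over its 31 genes the median log2 ratio was -0.67 at 4 h of LPS, with 18 lower by more than 1.5-fold, against a median of -0.38 and 39.2% lower over all tested genes. The list's median was -0.15 with DHA before LPS and 0.13 with DHA at 4 h. None of the list passed the limit in either DHA contrast. Of tested genes, only 1.1% were lower past it before LPS and 3.98% higher at 4 h. A count of none among 31 genes is therefore near those shares. Tubg1, the tubulin of spindle poles, had -1.88 at 4 h of LPS, the cohesin regulator Pds5b -1.699 and Fzr1, the other activator of the anaphase-promoting complex, -1.33. The cohesin genes Stag1, Smc3 and Rad21 had the lowest DHA log2 ratios before LPS, at -0.52, -0.36 and -0.36.

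DNA replication genes, which act in S phase, fell more with serum than the members (median log2 -0.46 against -0.30 over 42 genes) and less at 4 h of LPS (-1.42). By more than 1.5-fold, 39 were lower at 4 h of LPS, against 39.2% of tested genes. With DHA their median was -0.32 before LPS and 0.33 at 4 h, where 2 were higher by more than 1.5-fold, against 3.98% of tested genes. At 4 h of LPS the thymidine kinase Tk1 was at log2 -3.56, the licensing inhibitor Gmnn at -2.74 and the methyltransferase Dnmt1 at -2.46. With DHA before LPS the licensing factor Cdc6 was at -0.73, Rpa2, which binds single-stranded DNA, at -0.59, and the reductase subunit Rrm2 at -0.54.

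Upstream of mitosis, the 12 tested G1 cyclins, kinases and activating E2F factors had a median log2 ratio of -1.53 at 4 h of LPS. By more than 1.5-fold, 8 were lower and 1 higher, against 39.2% and 9.74% of tested genes. The lowest were Ccne1 (-2.68), Ccnd3 (-2.58) and E2f2 (-2.54). With DHA before LPS their median was -0.26 and none passed the limit, against 1.1% of tested genes lower and 1.31% higher past it. E2f2, Ccne2 and E2f3 were lowest at -0.57, -0.54 and -0.46. Of 17 tested inhibitors and repressors of the cycle, 15 were lower by more than 1.5-fold at 4 h of LPS, with a median of -1.55, against 39.2% of tested genes. From full to reduced serum 3 of them were higher and 1 lower by as much, against 10.3% and 7.31% of tested genes. At 4 h of LPS Rbl2, a pocket protein that represses cycle genes, was at -2.89, and the CDK4 inhibitors Cdkn2d and Cdkn2c were at -2.74 and -2.59. With DHA before LPS the list's median was -0.23, and the repressors E2f8 and E2f7 and the kinase Wee1 were lowest, at -0.61, -0.502 and -0.59.

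Target genes of p53 went several ways. Of 12, 6 were lower and 4 higher by more than 1.5-fold at 4 h of LPS, against 39.2% and 9.74% of tested genes, with a median log2 ratio of -0.55 against -0.38. With DHA before LPS 2 were higher past the limit, against 1.31% of tested genes, and none lower, with a median of 0.10. With DHA at 4 h 3 were lower past it, against 2.17% of tested genes, and none higher, with a median of -0.16. Gadd45a, a gene of growth arrest, was at 0.326 CPM in Con, 3.58 and 7.02 CPM without LPS, 5.01 and 5.47 CPM after 1 h and 25.1 and 24.4 CPM after 4 h. The kinase gene Plk2, a relative of Plk1, was at 2.53 CPM in Con, 11.5 and 20.8 CPM without LPS, 79.99 and 67.04 CPM after 1 h and 78.9 and 38.4 CPM after 4 h, so that DHA went with a higher level before LPS and a lower one at 4 h, the reverse of the members. Mdm2, the ligase that degrades p53, was at log2 0.57 with DHA before LPS, and Sesn1 at -2.403 at 4 h of LPS.

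**Figure D5:**
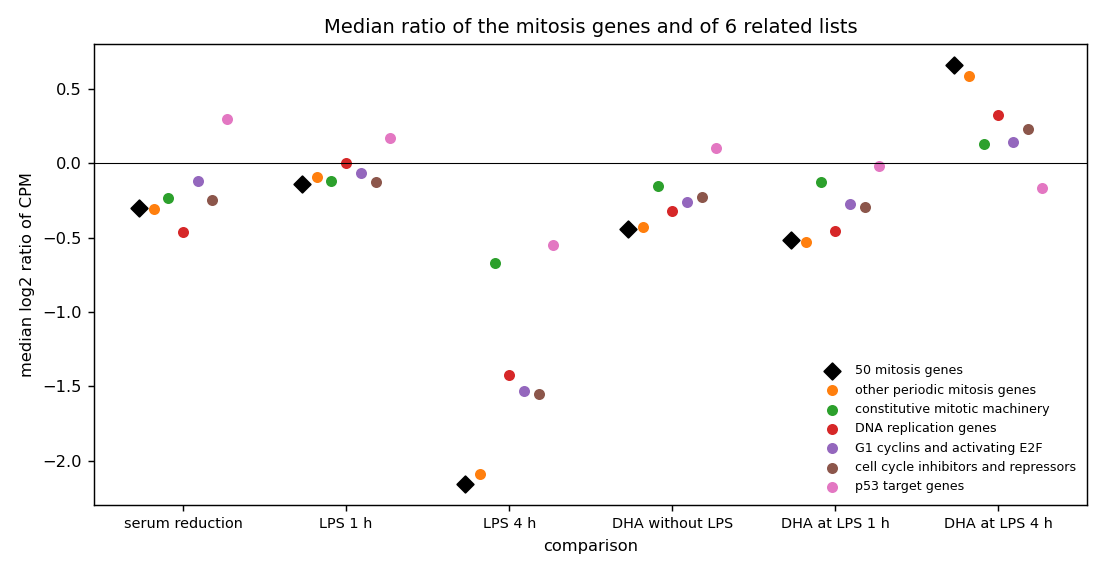
Median log2 ratio of CPM in 6 comparisons of 2 libraries for the 50 mitosis genes (black diamonds) and the tested genes of 6 related lists (coloured points). The mitosis genes and the other periodic mitosis genes lie lowest at 4 h of LPS, with medians of -2.16 and -2.09, and highest for DHA at 4 h, at 0.66 and 0.59.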

How the data were processed

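RNA of single cells was captured with the 10x Chromium 3′ kit (v3 chemistry). The authors deposited, for each of the 7 libraries, the UMI counts per gene and cell barcode made with Cell Ranger, without normalization or later filtering. The submitters' processing notes name version 3.1.0 and mm10, the methods another version. The study's cell limits were applied here, UMIs of kept cells were summed per gene and scaled to CPM, and genes with a mean of at least 5 CPM were compared. Ratios carry exact binomial 95% intervals on summed UMIs. PCR duplicates are removed by UMIs, but intervals and floors cover counting error only. The ratio intervals leave out the spread between cells. With 1 library per condition there was no test and no p-value, and 1.5-fold was the size limit. Cells were thinned without replacement (fixed seeds). The interval calculation was tested on simulated Poisson counts per gene. These hold no cells, so the test cannot show how the intervals perform where UMIs cluster in few cells. No doublet caller was run. Named here are the members, with the lead genes of each role given in every library, the 3 highest and 3 lowest members of each comparison, and the 3 genes of each list that moved most at 4 h of LPS and with DHA before LPS. The 50 members and all lists were chosen with earlier results of these data known. Alternatives were TMM factors (edgeR 4.0.16, R 4.3.3), a limit of 10000 UMIs, 10% mitochondrial UMIs and all barcodes. Others were no cells of the top 5% in UMIs, thinned cells, a limit of 2-fold and no filter on low background genes. All barcodes without mitochondrial genes was added after seeing the data. Positions came from RefSeq GRCm38.p6. Promoter motifs were planned and are not analysed here. Python 3.11.15, numpy 2.4.6 and scipy 1.17.1 were used.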

Additional observations from a re-analysis of the deposited data

Results flagged for a closer look

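The difference between DHA and Veh had opposite signs at 2 hours. The log2 ratio of DHA to Veh in the summed mitosis gene UMIs was -0.43 without LPS and 0.55 after 4 h of LPS, so it was 0.985 higher at 4 h, with a 95% interval from counting error of 0.968 to 1.003. All 50 members lay below a ratio of 1 in the former and above it in the latter, with intervals that included 1 at 4 h for Cks1b, Mad2l1 and Mybl2. Of all tested genes, 61.4% were lower without LPS, with a median log2 ratio of -0.05. At 4 h 66.4% of them were higher, with a median of 0.09, so the bulk of genes shifted the same way by less. With all deposited barcodes 7 members lay below 1 at 4 h. With 1 library at each hour and treatment, this difference was not tested against the spread between cultures, and its interval leaves out the spread between cells. The kept share of barcodes was 55.6% in Veh.LPS.0 and 18.5% in DHA.LPS.0, and 40.6% in Veh.LPS.4 and 12.1% in DHA.LPS.4. The change was 1.01 with the 10% mitochondrial limit, 0.844 with all barcodes, and 0.804 with all barcodes and no mitochondrial genes. It was not recomputed under TMM scaling. Among the barcodes with at least 20% mitochondrial UMIs, the members summed to 5276 CPM of non-mitochondrial UMIs in DHA.LPS.0 and 6445 in Veh.LPS.0, and to 2062 in DHA.LPS.4 and 1683 in Veh.LPS.4.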

How the results depend on the processing

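No median over the members changed sign under any alternative run, and 44 of 56 stayed within the members' median counting interval. No paired analysis was possible because each condition had 1 library and the labels give no shared replicate. For the same reason no replicate could be left out. Of 336 recomputed ratios of single members, the 3 highest and 3 lowest of each comparison, 239 stayed within their counting interval, and none past 1.5-fold changed sign. Of 72 counts of members past 1.5-fold under other settings, 52 stayed within 1.5 times the main count. In each of the 8 comparisons, 1 of these settings, no filter on low background genes, left the members untouched. Its count stayed the same by construction and is no evidence of stability. TMM factors gave 1, 4 and 0 members for DHA without LPS, DHA at 1 h and 1 h of LPS with DHA. All barcodes gave 28, 40, 10 and 2 for DHA without LPS, at 1 h, at 4 h and for 1 h of LPS with DHA. All barcodes without mitochondrial genes gave 6, 20, 21 and 2 for these, and 1 for 1 h of LPS. Without the 5% deepest cells the counts were 1 for DHA without LPS and 2 for 1 h of LPS with DHA. A 2-fold limit left 0 for serum, DHA without LPS, DHA at 1 h and 1 h of LPS with DHA, 5 for DHA at 4 h and 26 for 4 h of LPS with DHA. Of 10 recomputed values of the change in the DHA ratio from 0 h, 2 stayed within the counting interval and 8 moved outside it. None changed sign. The change was -0.0401 at 1 h and 1.01 at 4 h with the 10% mitochondrial limit, and -0.112 and 0.844 with all barcodes. It was -0.138 and 0.955 without the deepest cells, and -0.122 and 0.804 with all barcodes and no mitochondrial genes. With the 80th percentile of Veh.LPS.0 as the limit, the share of cells with more member UMIs was 25.2% in Con, 15.2% in DHA.LPS.0, 17.4% in Veh.LPS.1, 9.94% in DHA.LPS.1 and 1.16% in DHA.LPS.4. By construction, the 2-fold limit passes fewer genes and the 80th percentile more cells. For the other settings the cause was not tested. Depth was not limiting for the summed level, but the lowest members had 141 UMIs (Mybl2, DHA.LPS.4) and 216 UMIs (Ttk, Veh.LPS.4).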

Other observations

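Barcodes left out for their mitochondrial share still carried mitotic transcripts. Among barcodes with at least 20% mitochondrial UMIs, the members summed to 7618 CPM of the non-mitochondrial UMIs in Con, against 8011 CPM in the kept cells. The same pair of values was 6445 and 6409 in Veh.LPS.0, 5276 and 4741 in DHA.LPS.0, 4822 and 6034 in Veh.LPS.1, and 4114 and 4224 in DHA.LPS.1. It was 1683 and 1658 in Veh.LPS.4 and 2062 and 2423 in DHA.LPS.4. The largest gaps were a ratio of 0.799 (95% interval 0.791 to 0.807) in Veh.LPS.1 and 0.851 (0.840 to 0.862) in DHA.LPS.4.

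The CDK inhibitors Cdkn1a and Cdkn1b, which were described for this section after their values were seen, moved apart in the first hour of LPS. Cdkn1a, which encodes p21, was at 392 CPM in Con, 511 and 507 CPM without LPS, 978 and 872 CPM after 1 h and 367 and 372 CPM after 4 h. Cdkn1b, which encodes p27, was at 16.5 CPM in Con, 28.1 and 24.1 CPM without LPS, 11.7 and 9.24 CPM after 1 h and 6.64 and 6.35 CPM after 4 h. Cdkn1a was thus highest at 1 h and Cdkn1b was below its 0 h levels in all 4 LPS libraries, and neither differed between Veh and DHA by more than 1.5-fold at any hour. Myc, a driver of growth, had a mean below 5 CPM and so was not among the tested genes, and stood at 0.262 CPM in Con, 0.577 and 1.03 CPM without LPS, 4.15 and 4.93 CPM after 1 h and 11.1 and 9.12 CPM after 4 h.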
